A study of Lotus japonicus with 16 samples.

Results

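Whole roots of Lotus japonicus MG-20, an accession of a model legume, were compared after 3 weeks in hydroponics at 6.4 µM phosphate (-P) and at 64 µM phosphate (+P). Both groups grew at the favorable temperature (FT) of 23 °C by day and 22 °C by night, and each has 2 libraries of poly(A) RNA, each taken to be a pool of 3 plants as the growth protocol gives it. Set beside them below are roots at the same supplies under the high temperature (HT) of 30 °C and 29 °C, and shoots compared between the temperatures at 1 supply. The genes described are all rows of the authors' comparison of the -P-FT and +P-FT roots. There are 2045 of them, out of 3958 genes listed in the 4 comparisons of the series. Every row has an adjusted p under 0.05 and at least a 2-fold change, so these genes were selected on the very values given here, and their count is a description. "Rose" stands for the authors' up-regulated genes and is read as higher at low phosphate. The tables do not state which group was the reference.

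Phosphate is taken up by roots through transporters in the plasma membrane, and its supply in soil often limits plant growth. In Arabidopsis, MYB factors of the PHR type switch on genes for uptake and recycling when phosphate is short, and proteins with an SPX domain restrain them when it is ample. Plants short of phosphate are also known to replace membrane phospholipids with lipids that hold no phosphorus, to secrete acid phosphatases and to alter root growth and symbiosis. No function, protein or promoter sequence of the genes below was used here, so each is named by its locus number and none is assigned to these pathways.

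At low phosphate 943 root genes rose and 1102 fell. Whole roots were sequenced, so fewer cells of a type and less RNA per cell cannot be told apart, and no marker of roots or shoots could be scored. The genes that rose and fell were 4.67% and 5.46% of the 20175 genes behind the authors' adjustment, and 10.1% together. Among genes that rose, the middle 50% of log2 fold changes (log2FC) lay between 1.25 and 2.41, and 404 genes (42.8%) were under 1.5. Among genes that fell, the middle 50% lay between -2.41 and -1.31, and 433 genes (39.3%) were smaller than 1.5 in size. Changes of at least 4-fold were listed for 737 genes (3.65% of the genes tested), 326 that rose and 411 that fell. At least 8-fold rises and falls numbered 154 and 159, and at least 32-fold ones 50 and 29.

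The error of each fold decides how many of these sizes are secure. The standard error of the log2FC ran from 0.24 to 2.90 in the authors' deposited table, with a median of 0.40. For 823 genes (4.08% of those tested, 378 that rose and 445 that fell) the 95% interval of the fold lay wholly beyond 2-fold. It lay wholly beyond 4-fold for 142 genes that rose and 119 that fell. For the other 1222 members a change under 2-fold is within the interval. The authors' 500 smallest p-values all belong to members, and so do 999 of the 1000 smallest. Of the 2000 smallest, 1781 do, and the rest are not listed, so their folds are not known here.

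Values per library are not part of the tables, so the spread between the 2 libraries of a group was read from the standard errors. The coefficient of variation they imply, after counting error is taken out, had a median of 26.2%, with 19.6% and 42.0% at the 10th and 90th percentiles. It is a fitted value that DESeq2 draws toward genes of like expression, not a measured difference between 2 libraries. It fell with level, from a median of 54.0% below a base mean of 30 normalised counts to 22.8% between 1000 and 3000. The listed folds moved with it. Median log2 folds were 3.84 and -3.74 (genes that rose and fell) below a base mean of 30, and 1.31 and -1.49 above 3000. A small change cannot pass where the error is large, so a weakly expressed gene is listed only if its fold is large.

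**Figure D1:**
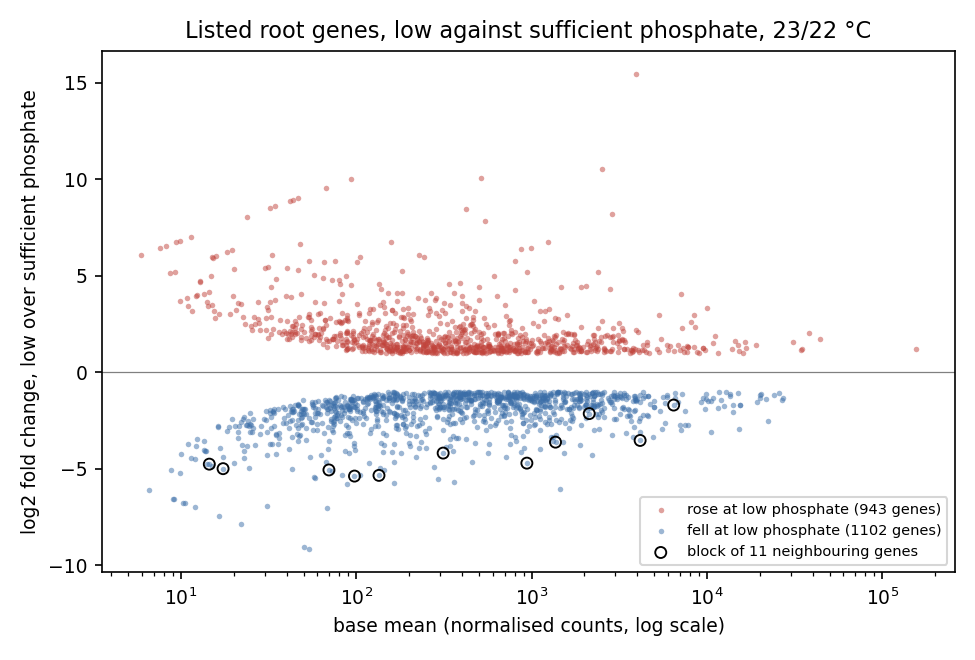
Log2 fold change (low over sufficient phosphate) of each of the 2045 listed root genes against its base mean in normalised counts, on a log axis. Genes that rose are red, genes that fell are blue, and rings mark the 11 neighbouring genes described below, which fell by 1.69 to 5.37 on the log2 scale; large folds crowd at the left, where base means are low.

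The largest rises took genes from near silence to high expression. Among members with a base mean of at least 100 normalised counts and a level of at least 1 in both groups, LOC130721572 led, at 3.34 normalised counts at sufficient phosphate and 5006 at low phosphate. Its log2FC was 10.55 (SE 0.63, adjusted p = 1.88e-58 by DESeq2) in the authors' deposited table. LOC130716125 had the smallest p of all, with 19.4 normalised counts at sufficient and 5723 at low phosphate. Its log2FC was 8.21 (SE 0.43, adjusted p = 2.80e-78 by DESeq2) in the authors' deposited table. LOC130743134 stood at 2.34 and 837 normalised counts, a log2FC of 8.48 (SE 0.73) in the authors' deposited table. LOC130739606 stood at 4.74 and 1077 normalised counts, with 7.83 (SE 0.57) in the authors' deposited table.

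Genes with a level under 1 in 1 group, 29 that rose and 13 that fell, stand apart because a fold against a level near 0 has no firm size. Of these 42, LOC130749463 and LOC130729492 had a base mean of at least 100, and both rose. LOC130749463 reached 7817 normalised counts at low phosphate from 0.18 at sufficient phosphate, and LOC130729492 reached 1021 from 0.96. In roots at the high temperature they were listed as well, at 3874 and 826 normalised counts at low phosphate.

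The next 4 rises were about as large as each other. LOC130710567 went from 2.83 to 312 normalised counts, with a log2FC of 6.78 (SE 0.72) in the authors' deposited table. LOC130738722 went from 22.6 to 2469 normalised counts, with 6.77 (SE 0.39) in the authors' deposited table. LOC130746589 went from 22.2 to 1961 normalised counts and LOC130746591 from 20.2 to 1720. The authors' deposited table gives log2FC values of 6.46 (SE 0.43) and 6.42 (SE 0.41) for them. These 4 folds differ by less than their standard errors. All 8 genes lie within the 51 smallest p-values of the comparison, and their implied coefficients of variation are between 20.7% and 26.3%, near or below the median of all members.

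The largest falls were less precise. LOC130718520 fell from 2854 to 43.3 normalised counts, with a log2FC of -6.04 (SE 1.17, adjusted p = 1.04e-05 by DESeq2) in the authors' deposited table. LOC130731642 fell from 706 to 13.6 normalised counts, with -5.70 (SE 1.24) in the authors' deposited table. LOC130735504 fell from 263 to 6.5 normalised counts, with -5.34 (SE 1.54, adjusted p = 0.0075 by DESeq2) in the authors' deposited table. The implied coefficients of variation of these 3 genes were 80.4%, 83.5% and 103%. Only 53 of the 2045 members (2.59%) exceed 60%, of which 37 fell and 16 rose. Whether 1 library sets these folds cannot be told from the tables.

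The other 5 of the 8 largest falls had standard errors between 0.49 and 0.75. LOC130724581 fell from 568 to 12.3 normalised counts, with a log2FC of -5.53 (SE 0.49, adjusted p = 4.45e-27 by DESeq2) in the authors' deposited table. LOC130729893 fell from 323 to 6.08 normalised counts, with -5.73 (SE 0.75) in the authors' deposited table. LOC130745387, LOC130743423 and LOC130747357 stood at 206, 280 and 266 normalised counts at sufficient phosphate and at 5.16, 8.52 and 8.73 at low phosphate. The 95% intervals of all 8 falls lie beyond a 4-fold change, and the nearest to it is that of LOC130735504, which ends at a log2FC of -2.31.

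**Figure D2:**
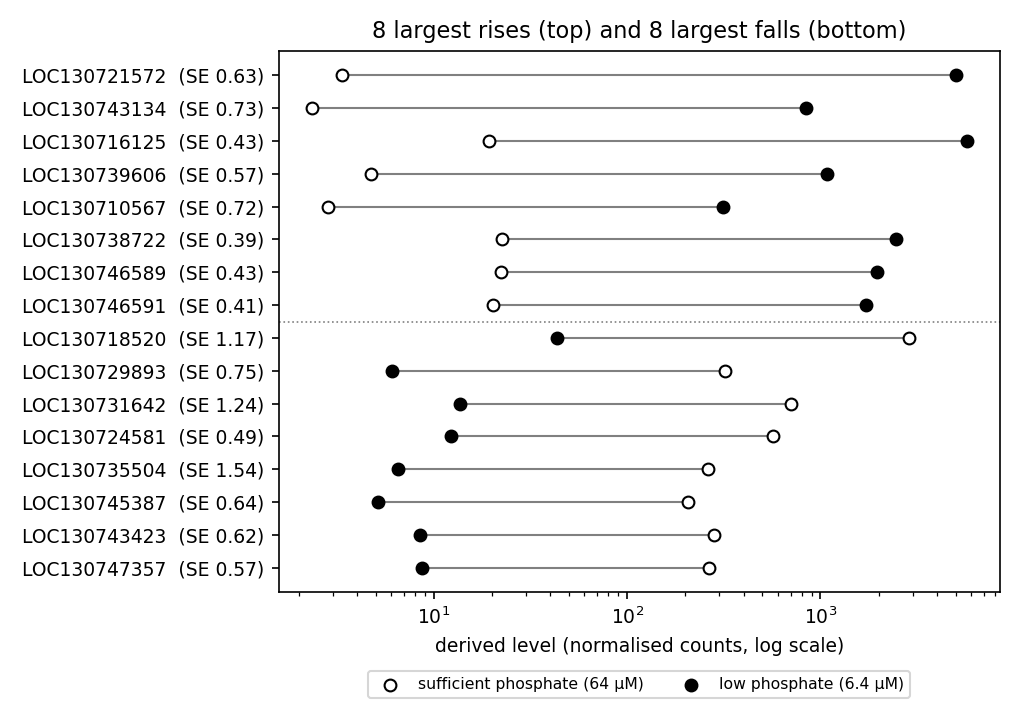
Levels of the 8 genes with the largest rises (top) and the 8 with the largest falls (bottom), in normalised counts on a log axis, with open circles for sufficient and filled circles for low phosphate and the standard error of the log2FC beside each name. Levels were derived from the authors' base means and folds; the rises start between 2.34 and 22.6 normalised counts, and the falls end between 5.16 and 43.3.

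Listed genes of the highest expression changed by less. LOC130743021 had the highest base mean of the listed genes and stood at 93257 normalised counts at sufficient and 217780 at low phosphate. Its log2FC was 1.22 (SE 0.26, adjusted p = 9.90e-05 by DESeq2) in the authors' deposited table. LOC130738195 rose from 20645 to 67508 normalised counts, LOC130722962 from 14959 to 61132 and LOC130729049 from 21040 to 48993. Their log2FC values were 1.71 (SE 0.26), 2.03 (SE 0.35) and 1.22 (SE 0.29) by the authors' deposited table. Of these 4, only LOC130722962 was also listed in roots at the high temperature, where the authors' deposited table gives 1.06 (SE 0.31).

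The most abundant genes that fell were LOC130733570, LOC130724429, LOC130714835 and LOC130715392. They stood between 33408 and 39217 normalised counts at sufficient phosphate and between 14604 and 16371 at low phosphate. Their log2FC values were -1.34 (SE 0.34), -1.43 (SE 0.48), -1.09 (SE 0.39) and -1.15 (SE 0.33) by the authors' deposited table. LOC130714835 lay near the threshold, at an adjusted p of 0.045 by DESeq2 in the authors' deposited table. No fall of these 4 was listed at the high temperature.

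Summed over genes, the levels that rose and fell were close in size. The genes that rose held 668551 normalised counts at sufficient and 1906292 at low phosphate, 2.85 times as many. The genes that fell held 2113950 and 689804, a 3.06-fold drop. LOC130743021 alone made up 11.4% of the risen total at low phosphate, and 36 genes made up 50% of it. Among genes that fell, 72 genes made up 50% of the total at sufficient phosphate. These sums are over listed genes and depend on the authors' size factors, and transcripts of different lengths were added as counts.

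Members at the limits of the table changed little or with little certainty. LOC130716565 was nearest to the fold limit, with 479 normalised counts at sufficient and 239 at low phosphate. LOC130726941 was nearest to the adjusted p limit, at 0.0498, with a log2FC of 1.11 (SE 0.40) in the authors' deposited table. Genes just outside the limits were not analysed here.

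All 2045 members, and all 3958 genes of the series' tables, are protein-coding in the RefSeq gene table of assembly LjGifu_v1.2, where 32752 of 40429 entries are. Gene order was taken from that table, and no coordinates are given because the authors' build is not named. That order is of a Gifu assembly, and Gifu is not the accession that was grown. Whether the plants grown here keep this order was not tested, so neighbours and runs below are those of the Gifu assembly. Of the 32712 protein-coding genes placed on a chromosome, 11.99% had a member as their next neighbour on at least 1 side. Among the members themselves the share was 18.9% (386 genes). The first share is over all placed genes, though members could come only from the 20175 tested. Which genes were tested is not known here, so no share over tested genes could be given. These 386 formed 208 adjacent pairs, of which 54 rose together, 96 fell together and 58 went opposite ways, so 72.1% had 1 direction. Of all members 46.1% rose and 53.9% fell, and the share of pairs with 1 direction was not tested against that. Neighbours can be copies of 1 gene whose reads are hard to assign, and their likeness in sequence was not tested. The pairs LOC130715958 and LOC130715970, LOC130742752 and LOC130742750, and LOC130745701 and LOC130745698 had the same base mean, fold and standard error, and their values are uncertain as separate measurements.

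In the Gifu assembly, the longest runs of adjacent members, of 6 and 5 genes, lie on either side of 1 unlisted gene. In that order, 11 of 12 consecutive protein-coding genes fell. These 11 genes are called a block here. The block was singled out after its values were seen. LOC130735506 was the most abundant, with 9852 normalised counts at sufficient and 3049 at low phosphate, and had the smallest fall, a log2FC of -1.69 (SE 0.47) in the authors' deposited table. LOC130735507 followed with 7643 and 663 normalised counts, LOC130736758 with 3467 and 790, and LOC130735503 with 2528 and 206.

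The other members were less abundant. LOC130735508 fell from 1808 to 69.5 normalised counts, and LOC130738594 from 593 to 32.7. LOC130738594 had the smallest adjusted p of the block, with a log2FC of -4.18 (SE 0.59, adjusted p = 1.94e-10 by DESeq2) in the authors' deposited table. LOC130735504, described above, is the second gene of the block. LOC130735505 fell from 191 to 4.60 normalised counts and LOC130735511 from 135 to 4.08. LOC130735509 and LOC130738595 were weakly expressed, at 28 and 33.7 normalised counts at sufficient phosphate and 1.04 and 1.06 at low phosphate.

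Together the block held 26540 normalised counts at sufficient and 4828 at low phosphate. The median log2FC of its members was -4.70, against -1.73 for all genes that fell. The folds were not equally secure. Standard errors ran from 0.45 to 1.54, and their median of 0.79 stood beside 0.41 for the falls outside the block. The implied coefficient of variation was between 68.9% and 103% for 5 members, and between 31.2% and 43.4% for the other 6. Those 6 all had an adjusted p of at most 0.00434. They include LOC130735503, LOC130735505 and LOC130735511, with log2FC values of -3.61 (SE 0.57), -5.37 (SE 0.79) and -5.05 (SE 0.78) by the authors' deposited table. Among all members, 2.59% had an implied coefficient of variation over 60%. The genes of the block were all read from the same 4 libraries. Whether 1 library sets their falls cannot be told here.

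LOC130738591, the one unlisted gene inside the block, has no value in the table. On the outer sides, the nearest protein-coding gene was not listed, and LOC130738589, 3 genes before the first member, rose by a log2FC of 1.3 (SE 0.31) in the authors' deposited table. At the high temperature only LOC130735509 of the 11 was listed, with a log2FC of -3.17 (SE 0.92) in the authors' deposited table. In shoots, LOC130735506 was listed at low phosphate, with -1.01 at the high against the favorable temperature in the authors' deposited table. Genes that are not listed may have changed too little, varied too much or been expressed too weakly, and a difference between temperatures was not tested for them.

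**Figure D3:**
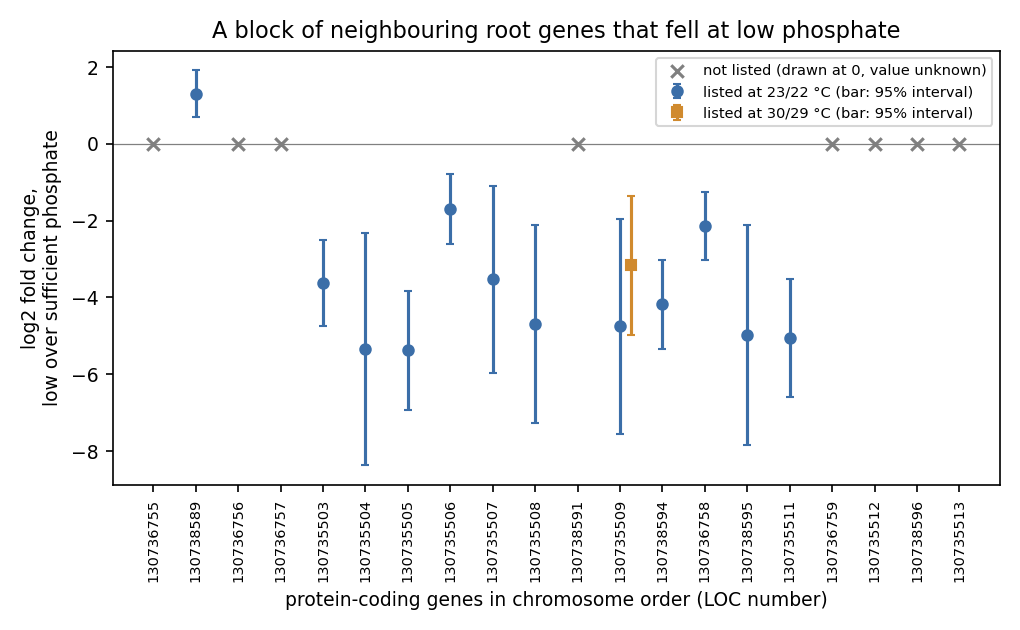
Log2 fold change (low over sufficient phosphate) of consecutive protein-coding genes in the chromosome order of the Gifu assembly, with 95% intervals as bars. Circles stand for the favorable temperature and the square for the high temperature, where 1 gene was listed. Crosses, drawn at 0, mark genes that are not listed and have no known value. Of the 12 genes from LOC130735503 to LOC130735511, 11 lie below 0, and their intervals leave it out because listing requires that.

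Shorter runs were mixed. LOC130721311, LOC130718053, LOC130717960 and LOC130718030 form a run of 4 and fell from 2338, 772, 49.99 and 84.9 normalised counts to 228, 70.9, 9.49 and 13.1. The first 2 of these were also listed at the high temperature, and the authors' deposited table gives them log2FC values of -2.40 (SE 0.48) and -1.99 (SE 0.44). Of the 21 runs of 3, 8 fell throughout, 3 rose throughout and 10 held both directions. One of the 3 that rose holds LOC130715958 and LOC130715970, which share their values.

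A run of 3 that rose held 2 of the genes with the largest rises. LOC130746589 and LOC130746591 are followed by LOC130746590, in that order. LOC130746590 rose from 801 to 13403 normalised counts with a log2FC of 4.06 (SE 0.35) in the authors' deposited table. At the high temperature the 3 log2FC values were 4.64 (SE 0.34), 3.61 (SE 0.37) and 3.74 (SE 0.25) by the authors' deposited table. In another run, LOC130727710 rose from 69.2 to 932 normalised counts, LOC130727711 from 74.6 to 275 and LOC130727712 from 316 to 707.

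The roots at the high temperature are other libraries, so their folds are a second measurement of the same genes. Of the 20129 genes tested there, 4.05% were listed. Of the members, 542 (26.5%) were listed there, which is 66.5% of that list. The share was higher for members with small p-values: 41 of the 50 smallest, 77 of the 100 smallest and 259 of the 500 smallest were listed at the high temperature. Members with at least 4-fold rises were listed there in 177 of 326 cases (54.3%), and those with at least 4-fold falls in 122 of 411 (29.7%). The median standard errors of these classes at the favorable temperature were 0.51 and 0.58. For the extreme class of at least 32-fold, 27 of 50 rises and 3 of 29 falls were listed. Whether rises and falls differ in this respect was not tested.

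**Figure D4:**
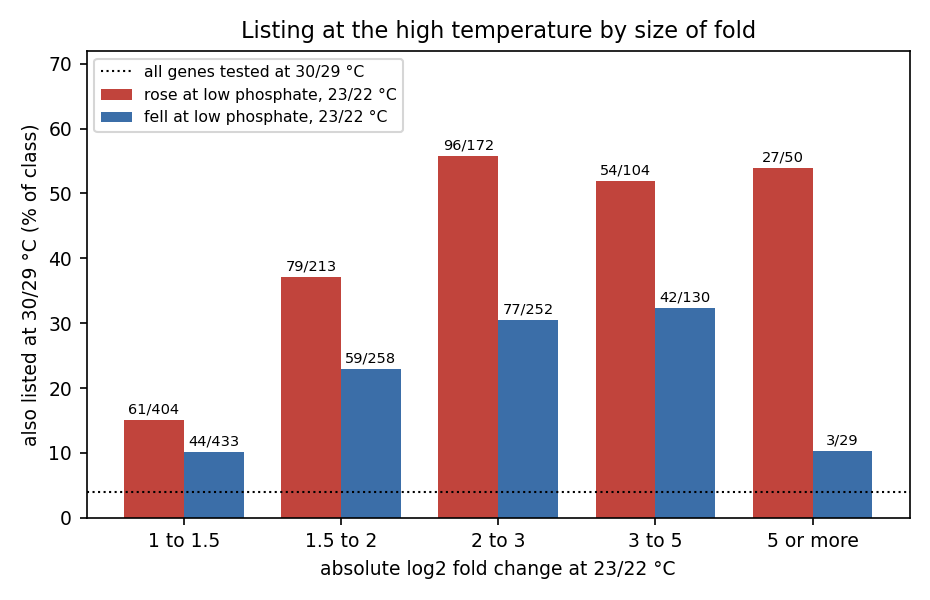
Share of members also listed in roots at the high temperature (% of each class), by the absolute log2FC at the favorable temperature, for genes that rose (red) and fell (blue), with the numbers of genes above the bars. The dotted line is the 4.05% of all genes tested there that were listed; the shares of genes that rose run from 15.1% in the smallest class to 55.8% in the class of 2 to 3, and those of genes that fell lie between 10.2% and 32.3%.

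All 8 of the largest rises were listed at the high temperature, and 4 of the 8 largest falls. These genes were picked for extreme folds at the favorable temperature, which by itself favors smaller folds in other libraries. How much of the differences below comes from that pick was not tested. LOC130721572, LOC130716125 and LOC130743134 kept log2FC values of 10.14 (SE 0.76), 7.99 (SE 0.41) and 7.88 (SE 0.70) by the authors' deposited table. Each differed from its value at the favorable temperature by less than the standard error of the difference. LOC130739606 had a smaller fold at the high temperature, where the authors' deposited table gives 5.07 (SE 0.38) against 7.83. Its levels there were 24.1 normalised counts at sufficient and 806 at low phosphate. The folds were compared by a normal test of their difference, adjusted by Benjamini-Hochberg over the 542 genes. For LOC130739606 it was -2.76 (SE 0.68, adjusted p = 0.0015). LOC130746591 differed by -2.80 (SE 0.55, adjusted p = 3.07e-05) and LOC130746589 by -1.83 (SE 0.55, adjusted p = 0.019). LOC130710567 and LOC130738722 had smaller folds as well, by -2.48 (SE 0.97) and -0.97 (SE 0.47), and these differences did not pass (adjusted p = 0.11 and 0.27).

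Among the largest falls, LOC130747357 had a log2FC of -1.33 (SE 0.36) at the high temperature in the authors' deposited table, against -4.93 (SE 0.57) at the favorable one. The difference was 3.60 (SE 0.67, adjusted p = 7.68e-06). LOC130724581 and LOC130729893 differed by 3.17 (SE 0.73, adjusted p = 6.75e-04) and 3.31 (SE 1.04, adjusted p = 0.029), again toward a smaller fall. LOC130745387 differed by 1.65 (SE 1.32, adjusted p = 0.62).

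Of the 34 genes whose folds differed, 30 kept their direction. The other 4 changed direction: LOC130749820, LOC130747247 and LOC130738620 fell at the favorable and rose at the high temperature, and LOC130745279 did the opposite. The differences were 4.797 (SE 0.55, adjusted p = 8.23e-16), 4.67 (SE 0.74), 3.59 (SE 0.86) and -2.99 (SE 0.48) in that order, and the first 2 are the largest of all 34. A gene listed with opposite signs changed at least 2-fold each way, so a large difference follows from the listing rule. LOC130738620 lay near the threshold at both temperatures, with an adjusted p of 0.048 and 0.037 by DESeq2 in the authors' deposited tables. Its base mean at the favorable temperature was 47.3, and that of LOC130747247 was 76.5. The 6 with the smallest p among the 30 include LOC130747357 and LOC130746591, and 4 others picked by that rank after the values were seen. LOC130720785 rose from 50.3 to 1836 normalised counts at the favorable temperature and from 484 to 1296 at the high temperature. Its log2FC was 5.19 (SE 0.32) at the favorable and 1.42 (SE 0.41) at the high temperature in the authors' deposited tables. The difference was -3.77 (SE 0.52, adjusted p = 8.29e-11). LOC130724304 rose from 6.68 to 450 normalised counts at the favorable temperature and from 90.3 to 432 at the high temperature. Its log2 folds were 6.07 (SE 0.52) and 2.26 (SE 0.35) by the authors' deposited tables, a difference of -3.82 (SE 0.63, adjusted p = 1.49e-07). For these 2 genes the level at sufficient phosphate was higher at the high temperature. LOC130718360 and LOC130747342 differed by -1.93 (SE 0.42) and -1.78 (SE 0.40). LOC130718360 went from 1193 to 9489 normalised counts at the favorable and from 481 to 1001 at the high temperature. LOC130747342 went from 134 to 934 at the favorable and from 475 to 964 at the high temperature, so its level at sufficient phosphate was also higher there. Levels were not tested between temperatures, and their size factors may differ.

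LOC130748949 was the only one of the 30 whose fold was larger at the high temperature. It rose from 39.1 to 679 normalised counts at the favorable temperature, with log2 folds of 4.12 (SE 0.46) and 6.21 (SE 0.52) by the authors' deposited tables. The difference was 2.10 (SE 0.69, adjusted p = 0.040). All 542 genes compared were selected on the very folds that enter the difference, at both temperatures. How far that selection sets the direction of the 30 differences was not tested. Listing requires a 2-fold change in both tables, and errors were smaller at the high temperature. In the 431 shared genes with a base mean of at least 100 in both, the median implied coefficient of variation was 25.1% at the favorable and 20.7% at the high temperature.

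**Figure D5:**
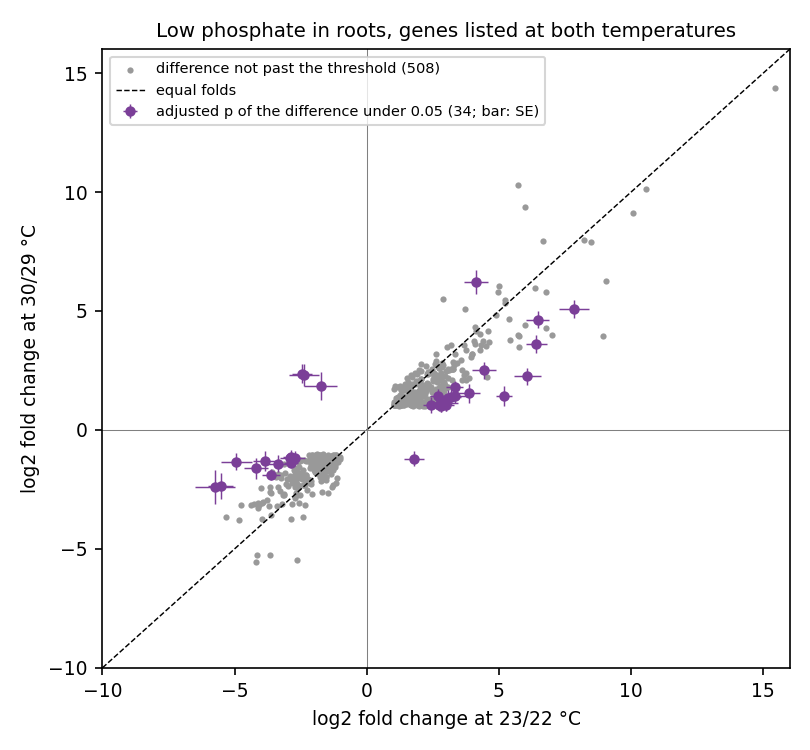
Log2 fold change (low over sufficient phosphate) in roots at the high temperature against that at the favorable temperature, for the 542 genes listed at both, with the dashed line at equal folds. The 34 genes whose folds differ at an adjusted p under 0.05 are purple with standard errors as bars, and most lie closer to 0 on the axis of the high temperature.

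In shoots, where temperatures were compared, 8.28% and 4.16% of genes were listed at sufficient and at low phosphate. Members made up 352 and 219 of them, or 17.2% and 10.7% of the members and 21.1% and 25.7% of the shoot lists. Of the members that rose in roots, 141 were listed in low-phosphate shoots, where 124 were lower and 17 higher at the high temperature. Of those that fell, 78 were listed there, 47 higher and 31 lower. At sufficient phosphate most listed genes that rose in roots were higher instead. By root log2FC, these were 54 of 64 (1 to 1.5), 35 of 39 (1.5 to 2), 19 of 27 (2 to 3) and 6 of 8 (3 to 5). Most listed genes that fell in roots were lower there. By size of the root log2FC, these were 37 of 62 (1 to 1.5) and 32 of 50 (1.5 to 2). For larger falls they were 44 of 60 (2 to 3), 28 of 36 (3 to 5) and 4 of 5 (5 or more). Directions over the whole shoot lists were not counted. Of the 50 that rose at least 32-fold, 14 were listed in low-phosphate shoots, and all 14 were lower. LOC130746591 was one, with a log2FC of -3.01 in the authors' deposited table, and LOC130721572 another, with -2.63. Of these 50, only LOC130720785 was listed in shoots at sufficient phosphate, where it rose by a log2FC of 3.25 at the high temperature in the authors' deposited table. Low phosphate at the favorable temperature is the compared treatment in these roots and the baseline in those shoots. No source used here tells whether roots and shoots were cut from 1 set of plants.

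In all, 1170 members (57.2%) were listed in no other table, and 23 were listed in all 4. The 23 were not alike in direction. LOC130718581, LOC130728248 and LOC130729594 rose in every comparison, from 9487 to 20744, from 1826 to 18265 and from 30.5 to 754 normalised counts in roots at the favorable temperature. LOC130740468, LOC130746616 and LOC130748235 fell in every comparison, from 5715 to 1495, from 929 to 157 and from 1672 to 302 in those roots. LOC130710931 rose from 1931 to 14916 normalised counts in these roots and fell in both shoot comparisons, with log2FC values of -2.39 and -4.23 in the authors' deposited tables.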

How the data were processed

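The analysis used 4 tables, each the authors' comparison of 2 groups of 1 tissue, with 2 libraries a group. Per the submitters' processing notes, the tools were DESeq2 1.44.0, RSEM 1.3.3, Trimmomatic 0.39.2 and FastQC 0.14.0, without settings. Build and annotation: not given in the sources used here. Per the file headers, each row gives the base mean of normalised counts, the log2 fold change, its standard error and the Wald statistic, a score. Each deposited p-value and adjusted p-value belongs to that statistic. Read depth is unknown, and no gene was tested anew from libraries.

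The number of genes tested was obtained by dividing the top gene's adjusted p by its raw p. Levels were derived from base mean and fold for groups of equal size. The coefficient of variation was solved from the standard error, taking size factors as 1, and was 0 for 24 genes. Intervals are the fold ± 1.96 standard errors. Folds at the 2 temperatures were compared by their difference over its standard error on the normal distribution, adjusted by Benjamini-Hochberg over shared genes. The functions were tested on simulated data. For the fold difference, the simulated folds were not put through the listing limits, unlike the real ones. Python 3.11.15, pandas 2.3.3, NumPy 2.4.6 and SciPy 1.17.1 were used. Named genes were the 8 largest rises and 8 largest falls (base mean at least 100, both levels at least 1), the 4 with the highest base mean in each direction and those nearest the limits. Genes and tests were chosen with earlier results of these data known. The planned motif, protein and gene list counts were not made, since no sequences or descriptions were used here.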

Additional observations from a re-analysis of the deposited data

Results flagged for a closer look

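Genes are given here because the change at low phosphate in roots differed between the favorable and the high temperature, by the normal test of the difference of 2 log2 folds. This held for 34 of the 542 genes listed at both temperatures. The differences below are high minus favorable temperature on the log2 scale.

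Among genes that rose at both, the fold was smaller at the high temperature for LOC130724304 (-3.82, SE 0.63), LOC130720785 (-3.77, SE 0.52), LOC130746591 (-2.80, SE 0.55) and LOC130739606 (-2.76, SE 0.68). It was also smaller for LOC130718360 (-1.93, SE 0.42), LOC130746589 (-1.83, SE 0.55) and LOC130747342 (-1.78, SE 0.40). Among genes that fell at both, the fall was smaller for LOC130747357 (3.60, SE 0.67), LOC130729893 (3.31, SE 1.04) and LOC130724581 (3.17, SE 0.73). The fold changed direction for LOC130749820 (4.797, SE 0.55), LOC130747247 (4.67, SE 0.74) and LOC130738620 (3.59, SE 0.86), which fell at the favorable and rose at the high temperature. It also did for LOC130745279 (-2.99, SE 0.48), which rose at the favorable and fell at the high temperature. For genes listed with opposite signs, a large difference follows from the listing rule. LOC130748949 rose more at the high temperature (2.10, SE 0.69). The median implied coefficient of variation was 25.1% at the favorable and 20.7% at the high temperature, and its part in these differences was not tested. All of these genes were selected through listing on their folds at both temperatures, and some were also picked for extreme folds at the favorable one. The part of this selection in the differences was not tested either.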

How the results depend on the processing

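No paired analysis was possible because no library has values of its own. For the same reason no other normalization, low-count filter or left-out replicate was run. Other settings for motifs, proteins and gene lists were not run, since no sequences or descriptions were used here. Of 24 recomputed values, 16 stayed within 1.5 times or within the spread. They are counts, shares and medians within 1 direction, so none of them could change sign. Raising the fold limit to 4-fold (2 on the log2 scale) left 737 genes, 326 that rose and 411 that fell, and 299 of those listed at both root temperatures. An adjusted p under 0.001 left 952 genes, 462 that rose and 490 that fell. With up to 2 genes between neighbours there were 477 pairs in place of 208, of which 66.9% had the same direction. Without the block of 11, an alternative added after seeing the data, 70.9% of 199 adjacent pairs did. Among genes whose base mean reached 100, the median log2 fold changes were 1.46 and -1.52, in place of 1.64 and -1.73. The stricter limits keep fewer genes by construction, and the wider neighbour rule admits more pairs.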
